A study of Mus musculus with 21 samples.

Results

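The endothelin system genes described here were the ligand genes Edn1 and Edn3, the receptor genes Ednra and Ednrb, and the converting enzyme genes Ece1 and Ece2, which made up 6 of the 19096 genes in the authors' deposited gene matrix. They were taken by symbol, and all 6 passed the filter on low counts. Edn3 was picked because it was higher in HFD Renin hearts, so its levels are a description with no test in any comparison, while the other 5 genes were tested. The RNA came from hearts of male C57BL/6NJ mice in a study of heart failure with preserved ejection fraction that joined an obesity diet with renin-driven hypertension. The 21 libraries fell into 4 groups. The chow novirus group (n = 4) was the control, the chow Renin group (n = 6) had renin without the diet, the HFD novirus group (n = 6) had the diet without renin, and the HFD Renin group (n = 5) had both. HFD was a high-fat diet (60% of kcal as fat) given for 10 weeks, and the mice are labelled as 8 to 10 weeks old. Renin was AAV-Renin, an adeno-associated virus that carries renin, and hearts were taken 6 weeks after it was injected. The sample labels call its controls novirus, whereas the series text calls them null vector, and the promoter in the vector is not given in the sources used here. No deletion or transgene of the mouse line was named for any group.

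Endothelins are short peptides that are cut out of longer precursors, at the end by the endothelin converting enzymes that Ece1 and Ece2 encode. They act through receptors coupled to G proteins. The ETA receptor (Ednra) on smooth muscle and heart muscle drives contraction and growth through phospholipase C, calcium and protein kinase C, and the ETB receptor (Ednrb) on endothelium drives release of nitric oxide and prostacyclin and clears endothelin-1 from the blood. Endothelin-1 (Edn1), made mainly by endothelium, binds both receptors, and endothelin-3 (Edn3) prefers ETB and is best known for its part in neural crest cells that form melanocytes and enteric neurons.

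The codons of both mature peptides are shown because Edn3 was picked for its rise in HFD Renin, while Edn1 was low in all 4 groups. Both stretches lie in exon 2 of 5 of the named GENCODE M21 transcript, on the plus strand of GRCm38. The stretch of Edn1-201 is at chr13:42303649-42303711 and that of Edn3-201 is at chr2:174761749-174761811. Capitals mark the 4 cysteine codons, whose cysteines form the bridges that hold the peptide's fold.
Edn1: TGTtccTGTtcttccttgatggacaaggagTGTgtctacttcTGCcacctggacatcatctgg
Edn3: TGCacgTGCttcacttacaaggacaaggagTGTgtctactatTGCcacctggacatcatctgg
Of the 63 bases, 50 were identical, and 15 of the 21 codons encoded the same amino acid, among them the last 7 codons, which encode the end of the peptide.

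Promoters of 300 bases, 250 before and 50 after the start, were taken from RefSeq (GRCm38.p6) for all 6 genes. Those of the ligand genes are shown because Edn3 was highest in HFD Renin while no Edn1 difference passed the edgeR test. Both lie on the plus strand, Edn3 at chr2:174760369-174760668 and Edn1 at chr13:42301226-42301525, and capitals mark motif matches.
Edn3 promoter: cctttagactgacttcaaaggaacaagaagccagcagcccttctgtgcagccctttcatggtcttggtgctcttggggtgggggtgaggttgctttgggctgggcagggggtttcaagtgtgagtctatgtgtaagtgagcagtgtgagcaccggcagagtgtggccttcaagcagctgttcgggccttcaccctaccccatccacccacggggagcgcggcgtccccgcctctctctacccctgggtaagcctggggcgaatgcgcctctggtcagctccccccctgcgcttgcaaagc
Edn1 promoter: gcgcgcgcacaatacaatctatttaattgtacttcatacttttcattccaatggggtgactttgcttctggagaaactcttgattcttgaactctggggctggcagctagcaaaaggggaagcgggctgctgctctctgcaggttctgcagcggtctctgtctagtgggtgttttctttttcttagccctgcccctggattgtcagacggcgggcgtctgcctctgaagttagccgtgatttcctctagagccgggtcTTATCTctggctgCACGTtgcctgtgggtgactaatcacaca
A script searched both strands for the AP-1 motif (TGANTCA), the motif of GATA factors (spelled AGATAA), the hypoxia element (ACGTG), the TATA box (spelled TATAAA) and the NFAT core (GGAAAA), which do not overlap in the matches shown. The Edn1 window held a GATA match and a hypoxia element match on the minus strand, and the Edn3 window held none of the 5. The Ece2 window and 1 of 4 Ece1 windows held hypoxia element matches, and the other 3 of Ece1 and those of Ednra and Ednrb held none of the 5. The Ednrb window covers the start of Ednrb-202 and Ednrb-203, and the start of Ednrb-201 lies upstream of it and was not searched. Of 32851 promoters of the same length, 7.81% held AP-1, 11.2% GATA, 19.6% the hypoxia element, 13.6% the TATA box and 23.4% the NFAT core. These are matches of letters, sites with other spellings were not searched, and whether any factor binds a match was not tested.

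Libraries held between 18743226 and 29265430 estimated reads. Cardiomyocyte markers (Tnnt2, Tnni3, Actc1, Ryr2 and Myh6) had a mean log2 CPM of 12.2 to 12.5 in chow novirus, 12.1 in chow Renin, 12.2 to 12.4 in HFD novirus and 12.0 to 12.2 in HFD Renin. Every library of both Renin groups (highest 12.13 in chow Renin and 12.191 in HFD Renin) was below every novirus library. The lowest novirus values were 12.2055 in chow novirus and 12.237 in HFD novirus. The endogenous renin gene Ren1 had reads in 4 of 21 libraries and at most 5 in any, so heart counts did not check who received Renin. Atrial muscle transcripts (4 of 5 markers passed the filter) summed to 465.8 to 623 CPM at their highest in each group, and 5 libraries stood apart with them: chow novirus replicate 3, chow Renin replicates 1 and 3, HFD novirus replicate 3 and HFD Renin replicate 3. Nervous tissue transcripts were high in all 6 chow Renin libraries: the 7 astrocyte markers summed to 80.5 to 139 CPM there, and to 23.9 to 27.8 in chow novirus, 27.2 to 39.7 in HFD novirus and 22.0 to 37.2 in HFD Renin. Clock genes differed too. A clock score, the mean log2 CPM of Dbp, Per2, Per3, Nr1d1, Nr1d2, Ciart, Tef and Hlf minus that of Arntl, Npas2, Clock and Nfil3, ran from 3.53 to 3.84 in chow novirus, 2.98 to 3.27 in chow Renin, 3.31 to 3.61 in HFD novirus and 2.18 to 3.36 in HFD Renin. The labels do not give litters, extraction batches or times of collection, so p-values measure the spread between these libraries.

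Levels of different genes are compared per length, as TPM (transcript abundance scaled for length and depth) summed over transcripts of at least 1000 bases. Over all 21 libraries Ece1 was highest at 16.6 ± 2.52 TPM (SD), followed by Ednra at 7.82 ± 1.55 and Ednrb at 4.09 ± 1.01. Ednra was above Ednrb in all 21 libraries. Ece2 was lowest at 0.522 ± 0.154 TPM, below Edn1 at 1.70 ± 0.328 in all 21 libraries, and the ranges of Edn1 and Ece2 did not overlap. Edn3 had no fixed place in this order. It ranked 5 of 6 in chow novirus at 0.838 ± 0.338 TPM (n = 4) and in HFD novirus at 1.31 ± 0.402 (n = 6), 4 of 6 in chow Renin at 2.08 ± 0.520 (n = 6), and 3 of 6 in HFD Renin at 8.34 ± 5.61 (n = 5). In HFD Renin its range of 2.81 to 17.3 TPM overlapped those of Ednra (6.68 to 10.55) and Ednrb (4.06 to 6.63), so Edn3 did not differ from either receptor gene beyond the spread, while the ranges of the receptor genes did not overlap. It also overlapped Ece1 (14.6 to 17.0), since in replicate 1 Edn3 was at 17.3 TPM and Ece1 at 16.3. Edn3 also overlapped Edn1 in chow Renin and HFD novirus, and Ece2 in chow novirus. The remaining ligand gene, Edn2, had 7 reads in all and none in 16 libraries, and did not pass the filter.

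Edn3 (ENSMUSG00000027524, GRCm38 chromosome 2, 174760619 to 174784042, plus strand) was highest in HFD Renin hearts. Values are CPM, counts scaled to TMM-normalized library sizes. The 4 chow novirus libraries measured 3.44, 2.999, 4.21 and 1.45 CPM. In chow Renin Edn3 ran from 4.40 to 9.01 with a median of 6.77, and in HFD novirus from 3.03 to 7.82 with a median of 4.91. The 5 HFD Renin libraries measured 55.3, 35.2, 15.0, 10.6 and 26.7 CPM. Each of these 5 was above all 16 libraries of the other groups. Every chow Renin library was also above every chow novirus library, whereas HFD novirus overlapped both chow groups. Group means were 3.02 ± 1.16, 6.82 ± 1.95, 5.03 ± 1.69 and 28.6 ± 17.8 CPM (SD, n = 4, 6, 6 and 5, in the order chow novirus, chow Renin, HFD novirus, HFD Renin).

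As a description, the fitted log2 fold change of Edn3 was 3.24 in HFD Renin against chow novirus, 1.18 in chow Renin against chow novirus and 0.74 in HFD novirus against chow novirus, comparisons that share their controls. It was 2.50 in HFD Renin against HFD novirus and 2.06 in HFD Renin against chow Renin, and the effect of Renin was larger on HFD than on chow by 1.33 on the log2 scale. Of all genes tested, 4.98% had every HFD Renin library above every chow novirus library, 1.95% did so against HFD novirus and 5.55% against chow Renin, and 10.4% had every chow Renin library above every chow novirus library. In the opposite direction the shares were 5.07%, 1.52%, 9.78% and 4.75%. In bulk tissue more cells of a type and more RNA per cell cannot be told apart. HFD Renin replicates 1, 2 and 5, with the most Edn3, had clock scores of 2.18, 2.91 and 2.93, and replicates 3 and 4, with the least, had 3.36 and 3.26. Of 5 melanocyte markers 4 passed the filter, and they summed to 5.89 to 9.15 CPM in HFD Renin, 2.76 to 11.3 in chow novirus, 3.13 to 7.88 in chow Renin and 3.03 to 9.58 in HFD novirus, with Tyrp1 at 0 reads in 10 libraries and Mlana in 6. The 5 Schwann cell markers, 4 of which passed, summed to 56.7 to 63.5 CPM in HFD Renin and to 46.8 to 79.2 in the other groups. The 6 fibroblast markers all passed, with none at 0, and summed to 681 to 1012 CPM in HFD Renin, 482 to 865 in chow novirus, 447 to 685 in chow Renin and 485 to 966 in HFD novirus. The part of these markers and of the clock genes in the level of Edn3 was not tested. Without the 5 libraries with atrial transcripts the difference in mean log2 CPM between HFD Renin and chow novirus was 3.47, against 3.10 with them.

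**Figure D1:**
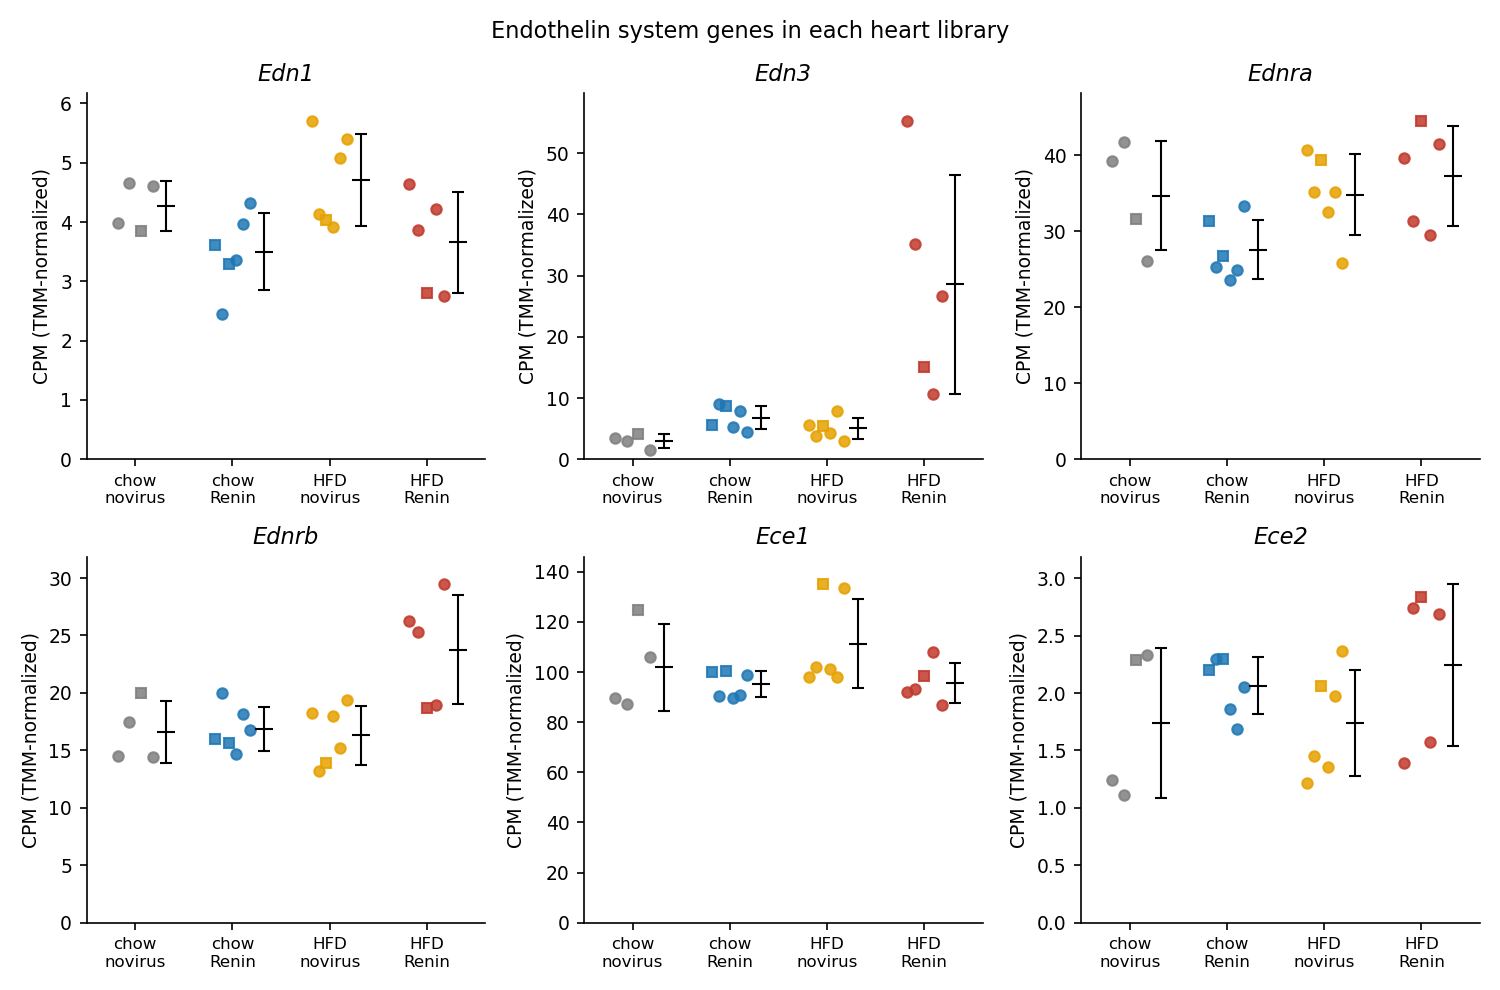
TMM-normalized CPM of the 6 endothelin system genes in the 21 heart libraries, 1 panel a gene with an axis from 0, grouped by diet and virus. Each point is a library, squares are the 5 libraries with atrial muscle transcripts, and bars are the mean ± SD of the group. Edn3 spread from 10.6 to 55.3 CPM in HFD Renin, above every other library, and 3 of the 5 HFD Renin libraries lay above all others for Ednrb.

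Edn1 (ENSMUSG00000021367, chromosome 13, 42301476 to 42307990, plus strand), the ligand gene of endothelin-1, was low in all 4 groups. Chow novirus libraries measured 3.98, 4.67, 3.84 and 4.61 CPM, and HFD Renin libraries 4.64, 3.86, 2.80, 4.22 and 2.76. In chow Renin it ran from 2.44 to 4.32 CPM with a median of 3.49, and in HFD novirus from 3.91 to 5.71 with a median of 4.61. All pairs of groups overlapped. The lowest means were in both Renin groups, 3.50 ± 0.646 and 3.66 ± 0.846 CPM (SD, n = 6 and 5), against 4.27 ± 0.422 and 4.71 ± 0.777 in chow novirus and HFD novirus (n = 4 and 6). No difference passed the edgeR test. Against HFD novirus, 3 of 5 members had an unadjusted p under 0.05, as did 26.5% of all genes. The difference nearest to the threshold, HFD Renin against HFD novirus, was -0.37 in log2 units (SE 0.16, adjusted p 0.136), and it passed with the astrocyte score as a covariate (-0.51, adjusted p 0.0233). Against chow novirus, HFD Renin gave -0.23 (SE 0.18, adjusted p 0.462) and chow Renin -0.29 (SE 0.17, adjusted p 0.314). With the astrocyte score the difference of chow Renin from chow novirus had the opposite sign (0.55, edgeR adjusted p 0.322).

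The order of the ligand genes differed between groups. Levels were again taken per length, as TPM of transcripts of at least 1000 bases. Edn3 was below Edn1 in all 4 chow novirus libraries, where the ratio of Edn3 to Edn1 was 0.559, 0.418, 0.711 and 0.205. It was above Edn1 in all 5 HFD Renin libraries, where the ratio was 8.13, 5.97, 3.81, 1.63 and 6.49. The other groups lay between: Edn3 was the higher in 5 of 6 chow Renin libraries (ratio 0.743 to 2.42, median 1.20) and in 1 of 6 HFD novirus libraries (0.364 to 1.06, median 0.727). The ratio is a description, because Edn3 is part of it.

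**Figure D2:**
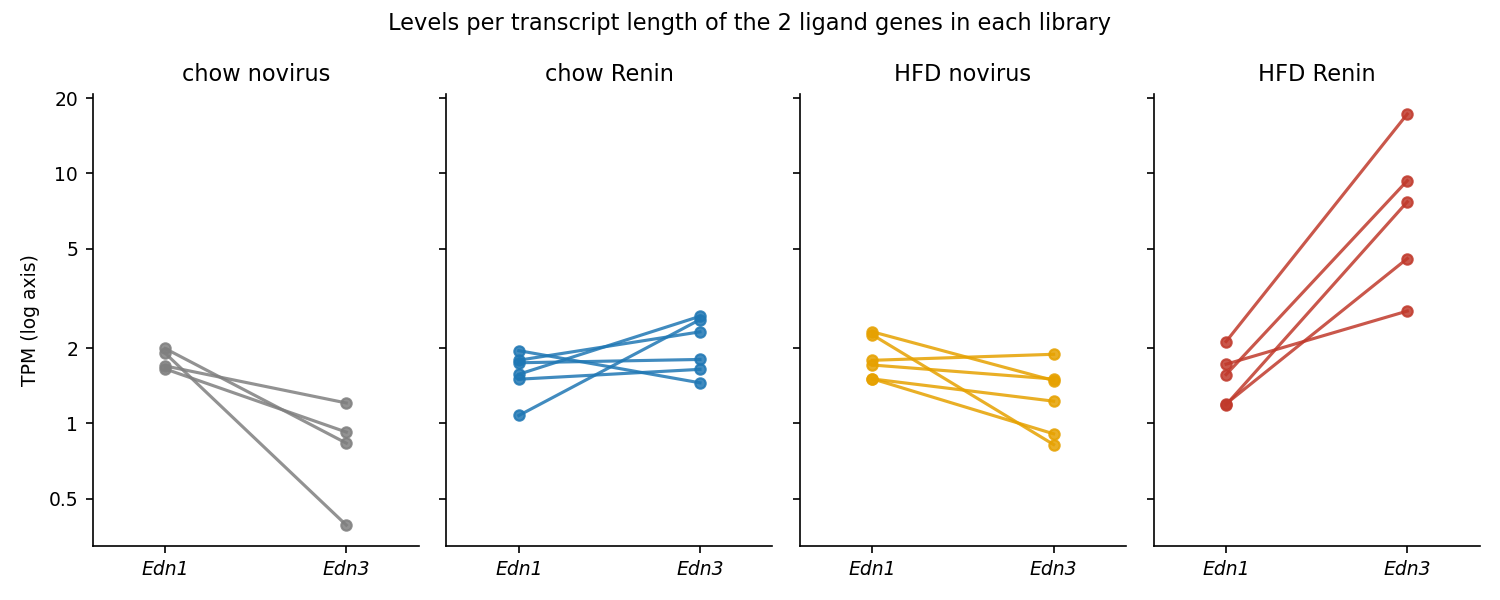
TPM of Edn1 and Edn3 in each library on a log axis, summed over transcripts of at least 1000 bases. Each group has 1 panel, and a line joins the 2 genes of the same library. Lines fall from Edn1 to Edn3 in all 4 chow novirus libraries and rise in all 5 HFD Renin libraries, while Edn1 stays between 1.07 and 2.32 TPM throughout.

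Ednrb (ENSMUSG00000022122, chromosome 14, 103814625 to 103844402, minus strand), the receptor gene that endothelin-3 prefers, was higher in HFD Renin than in each other group. HFD Renin libraries measured 26.3, 25.3, 18.7, 19.0 and 29.5 CPM, and chow novirus libraries 14.5, 17.5, 19.99 and 14.4. Chow Renin ran from 14.7 to 19.95 with a median of 16.4, and HFD novirus from 13.2 to 19.4 with a median of 16.6. HFD Renin replicates 1, 2 and 5 were above every other library, and replicates 3 and 4 lay inside the ranges of the other groups, so the groups overlapped. The 3 high libraries were also the 3 with the lowest clock scores of the group, and the part of the fibroblast markers, whose sums are given beside Edn3, was not tested. Means were 16.6 ± 2.67, 16.9 ± 1.91, 16.3 ± 2.56 and 23.7 ± 4.74 CPM (SD, n = 4, 6, 6 and 5).

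In HFD Renin against chow novirus, the comparison of the full model with its control, Ednrb was the 1 tested member of 5 that rose, by 0.52 on the log2 scale (SE 0.14, edgeR adjusted p 0.0277), where 8.29% of all genes were called and 4.05% were called higher. Calls over all genes, 1262, were 565 to 793 without chow novirus replicate 1, 2 or 4 or HFD Renin replicate 1, 2 or 5. It rose by 0.54 in HFD Renin against HFD novirus, the effect of Renin on HFD (SE 0.13, edgeR adjusted p 0.00893), again as 1 of 5 tested members, where 11.1% of genes were called and 6.07% higher (1696 genes, and 696, 934 and 784 without HFD Renin replicate 1, 2 and 5). The effect of HFD under Renin, from HFD Renin against chow Renin, was a rise of 0.49 (SE 0.13, edgeR adjusted p 0.00608), and 2 of 5 members were called, both higher, where 22.6% of genes were called and 9.8% higher. These 3 comparisons share the HFD Renin libraries. Renin without HFD and HFD without Renin left Ednrb at 0.02 (SE 0.14, adjusted p 0.948) and -0.02 (SE 0.14, adjusted p 0.972). The interaction, the effect of Renin on HFD minus that on chow, was 0.52 (SE 0.19, adjusted p 0.0815) and did not pass, though it did without HFD Renin replicate 3 or 4 (adjusted p 0.0346 and 0.0359).

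The call of Ednrb against chow novirus passed in 24 of 34 fits. It was lost, among others, without chow novirus replicate 1, 2 or 4 or HFD Renin replicate 1, 2 or 5 (adjusted p 0.0564 to 0.106), in a fit of the compared groups alone (adjusted p 0.072), on log2 TPM (adjusted p 0.0725) and with the clock score as a covariate (0.21, adjusted p 0.874), and without the 5 libraries with atrial transcripts it was larger (0.68, adjusted p 0.00918). The call against HFD novirus passed in 33 of 34 fits and was lost with the clock score (0.32, adjusted p 0.769), where 0 genes of all were called in either comparison with novirus hearts, and the call against chow Renin, in 31 of 34, was lost on log2 TPM (0.33, adjusted p 0.109) and with the endothelial (0.30, adjusted p 0.243) or astrocyte score (0.40, adjusted p 0.564). All 9 endothelial markers passed the filter, with none at 0, and they summed to 813 to 917 CPM in chow novirus, 707 to 866 in chow Renin, 832 to 1095 in HFD novirus and 835 to 1000.1 in HFD Renin. With the endothelial score as a covariate, Ednrb differed from chow novirus by 0.45 (adjusted p 0.0481) and from HFD novirus by 0.51 (adjusted p 0.00957). Clock scores of chow novirus and HFD Renin did not overlap, nor did endothelial or astrocyte scores of chow Renin and HFD Renin. In those comparisons the fits with these scores cannot tell score from group.

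Ednra (ENSMUSG00000031616, chromosome 8, 77663031 to 77724464, minus strand), the ETA receptor gene, was the more abundant receptor gene and was lowest in chow Renin. Chow novirus libraries measured 39.3, 41.7, 31.6 and 26.1 CPM, and HFD Renin libraries 39.7, 31.4, 44.5, 29.4 and 41.4. Chow Renin ran from 23.6 to 33.3 with a median of 26.0, and HFD novirus from 25.8 to 40.7 with a median of 35.2. Every pair of groups overlapped, and means were 34.7 ± 7.16, 27.5 ± 3.91, 34.8 ± 5.34 and 37.3 ± 6.55 CPM (SD, n = 4, 6, 6 and 5). Ednra was higher in HFD Renin than in chow Renin by 0.44 on the log2 scale (SE 0.14, edgeR adjusted p 0.024), the second of the 2 members called there. In chow Renin against chow novirus it differed by -0.33 (SE 0.15, adjusted p 0.154), and 0 of 5 tested members passed in edgeR or DESeq2, with 1 at an unadjusted p under 0.05 as for 25.1% of all genes, where 13.5% of all genes were called. With the endothelial score as a covariate, that difference passed (-0.50, adjusted p 0.0289).

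The call of Ednra passed in 22 of 34 fits. It was lost without chow Renin replicate 2, 3, 4 or 5 or HFD Renin replicate 1, 3 or 5 (adjusted p 0.0529 to 0.0836), without the 5 libraries with atrial transcripts (0.37, adjusted p 0.149), with no filter on low counts (adjusted p 0.0513), on log2 TPM (0.31, adjusted p 0.187) and with the clock score (0.41, SE 0.15, adjusted p 0.0559) or astrocyte score (0.42, SE 0.27, adjusted p 0.565). The 5 smooth muscle markers all passed the filter and summed to 295 to 346 CPM in chow novirus, 238.3 to 355 in chow Renin, 281 to 608 in HFD novirus and 242 to 380 in HFD Renin, and their part in Ednra was not tested. Fibroblast markers, with a mean log2 CPM of 5.44 to 6.02 in chow Renin and 5.99 to 6.48 in HFD Renin, and endothelial markers, with 5.82 to 6.06 and 6.10 to 6.29, were higher in HFD Renin, the endothelial ones with no overlap. With the endothelial score as a covariate the difference in Ednra was 0.69 (adjusted p 0.00654), and the part of the fibroblast markers was not tested. Against chow novirus and HFD novirus, Ednra in HFD Renin differed by 0.11 (SE 0.15, adjusted p 0.714) and 0.10 (SE 0.14, adjusted p 0.695). The interaction for Ednra was 0.43 (SE 0.20, adjusted p 0.199, and 0.0424 with the endothelial score). No tested member passed in the interaction by edgeR or DESeq2, with 2 at an unadjusted p under 0.05 as for 23% of all genes, where 10.4% of all genes were called.

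The receptors are often read together, and the ratio of Ednra to Ednrb in TPM had a median of 2.27 in chow novirus, 1.76 in chow Renin, 2.32 in HFD novirus and 1.65 in HFD Renin. Both Renin groups had the lower medians. The mean log2 ratio differed by -0.41 in HFD Renin against chow novirus (two-sided exact permutation p 0.111), by -0.37 in chow Renin against chow novirus (exact p 0.133) and by -0.41 in HFD Renin against HFD novirus (exact p 0.0952). None of the 5 pairs of groups passed, with adjusted p from 0.222 to 0.981 and group ranges that overlapped. The smallest p these designs allow is 0.0159 for 5 against 4 libraries, 0.00952 for 6 against 4 and 0.00433 for 5 against 6.

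**Figure D3:**
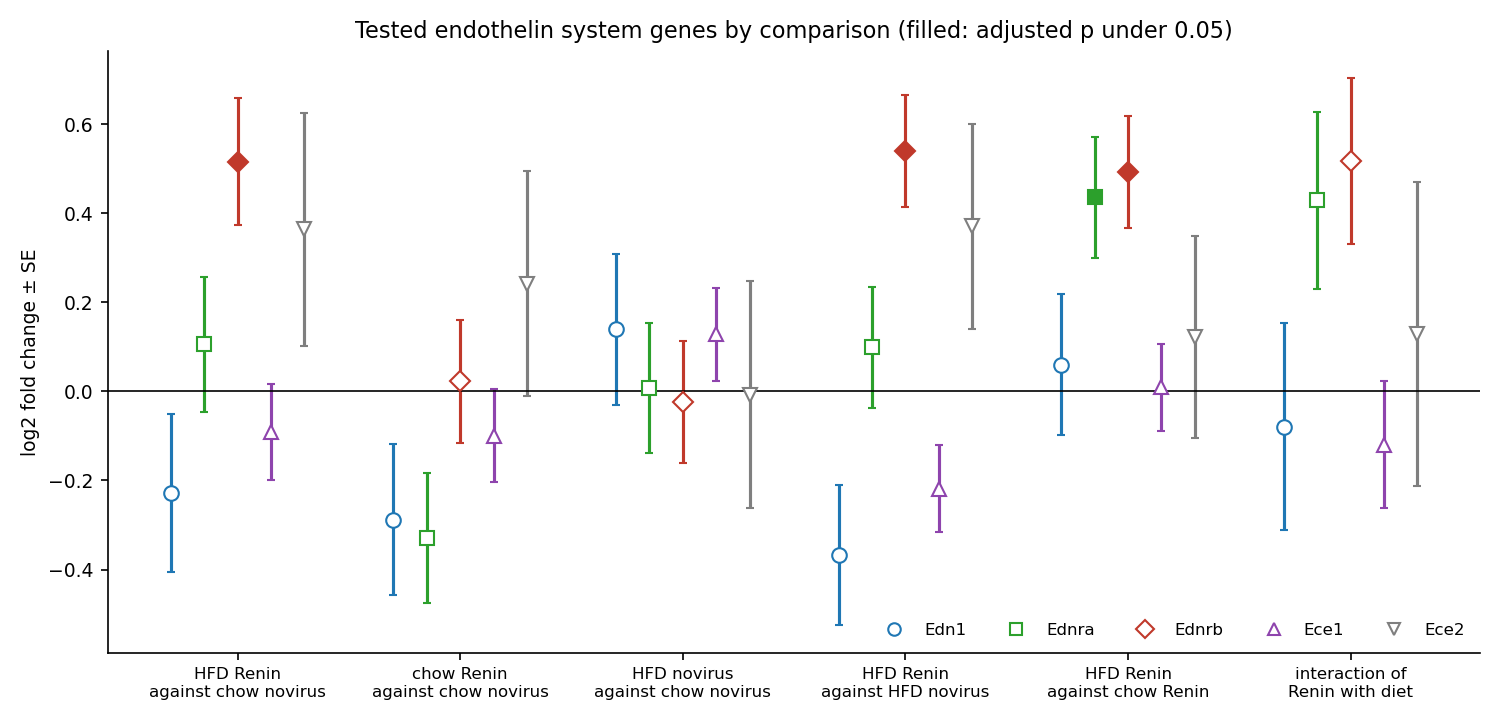
Log2 fold change ± SE of the 5 tested members in the 6 comparisons, from the edgeR fit over 21 libraries; filled symbols mark an adjusted p under 0.05. Ednrb is filled in the 3 comparisons that start from HFD Renin, at 0.52, 0.54 and 0.49, and Ednra is filled once, at 0.44.

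Ece1 (ENSMUSG00000057530, chromosome 4, 137862237 to 137965229, plus strand), the main converting enzyme gene, was the most abundant member, and none of its differences passed. Chow novirus libraries measured 89.5, 87.1, 124.8 and 106 CPM, and HFD Renin libraries 92.0, 93.3, 98.3, 108 and 86.8. Chow Renin ran from 89.8 to 100.4 with a median of 94.9, and HFD novirus from 98.0 to 135 with a median of 102. The 3 highest values, 135 and 134 in HFD novirus replicates 3 and 6 and 125 in chow novirus replicate 3, included 2 libraries with atrial transcripts, and HFD novirus replicate 6 had the highest endothelial score, 6.55. The largest difference, HFD Renin against HFD novirus, was -0.22 in log2 units (SE 0.10, edgeR adjusted p 0.15) and had the opposite sign on log2 TPM (0.22, adjusted p 0.644). The other 5 comparisons lay between -0.12 and 0.13, with adjusted p from 0.624 to 0.964.

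Per length, a short transcript held much of the value of Ece1. Ece1-203, a 172-base model with an effective length of 10.9 to 11.1 bases, had 2 to 19.2 estimated reads a library, 0.373% of the reads of Ece1, yet held 49.0% of its TPM on average. Ece1-201, the 4816-base transcript, had 96.0% of the reads and 35.5% of the TPM. The coefficient of variation of Ece1 over 21 libraries was 13.8% in CPM, 31.4% in TPM and 29.5% in the authors' gene matrix. Across the 21 libraries, which share these reads, the matrix signal of Ece1 had a Pearson r of 0.957 with the TPM of Ece1-203 and of 0.460 with the CPM of Ece1. For this reason levels per length were taken from transcripts of at least 1000 bases, a choice made after these values were seen.

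**Figure D4:**
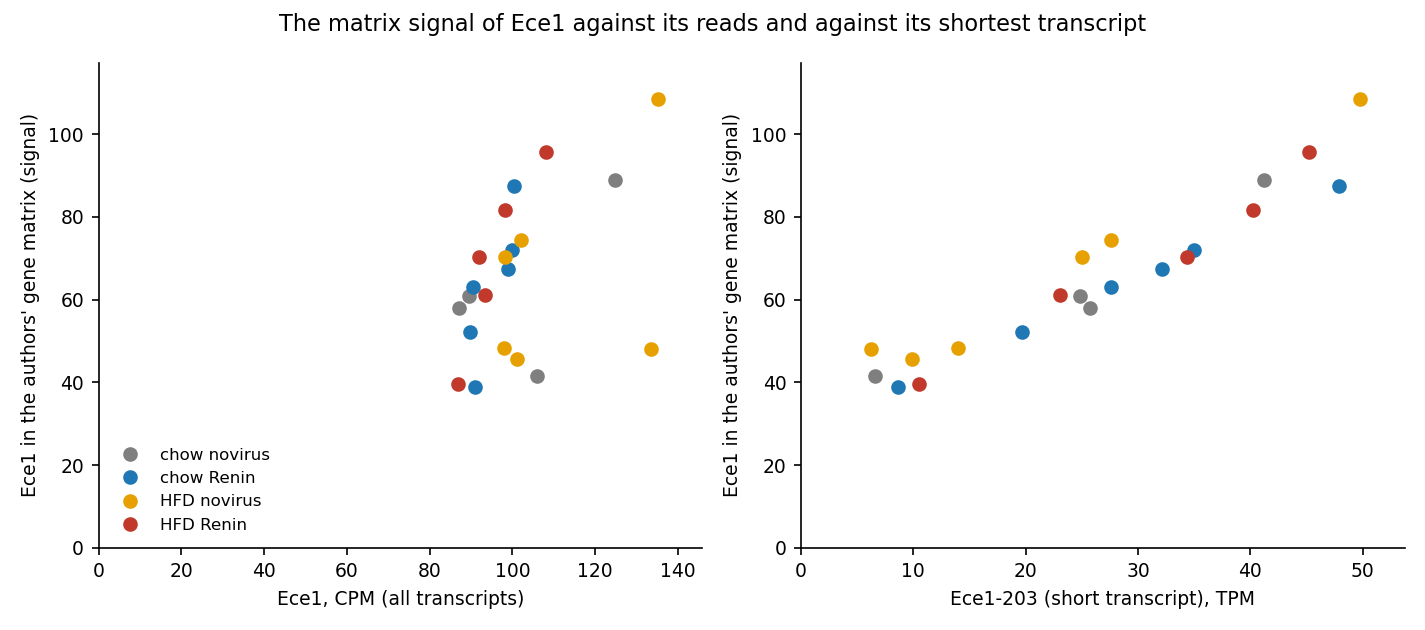
Signal of Ece1 in the authors' gene matrix against its CPM (left) and against the TPM of its 172-base transcript Ece1-203 (right), with 1 point a library coloured by group and all axes from 0. Points line up on the right (r 0.957) and scatter on the left (r 0.460).

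Ece2 (ENSMUSG00000022842, chromosome 16, 20629828 to 20646485, plus strand), the converting enzyme gene best known from the nervous system, was the least abundant member. Chow novirus libraries measured 1.25, 1.11, 2.28 and 2.33 CPM, and HFD Renin libraries 1.39, 2.74, 2.84, 1.57 and 2.69. Chow Renin ran from 1.69 to 2.30 with a median of 2.12, and HFD novirus from 1.22 to 2.37 with a median of 1.71. The chow novirus and HFD Renin libraries each split into a low and a high set, and all groups overlapped. Differences lay between -0.01 and 0.37 with adjusted p of 0.321 or more. In HFD novirus against chow novirus, the effect of HFD alone, 0 of 5 tested members passed in edgeR or DESeq2 and 0 had an unadjusted p under 0.05, where 0.0657% of all genes were called (0.0131% higher, 0.0526% lower; 2 and 8 genes, and 1 and 104 on log2 TPM) while an unadjusted p under 0.05 was reached by 11%. Over all genes, 10 were called with all libraries, 0 whichever chow novirus library was left out, 57 without HFD novirus replicate 4 and 0 to 16 without any other library. Of all genes, 1.06% had every HFD novirus library above every chow novirus library and 1.36% below. Gm49333, which overlaps Ece2 on its strand, had 0 reads. The genes Gm13012, 4933431K23Rik and Gm47118 on the opposite strand of Ece1, Ednra and Edn1 had no transcript in the files, so reads from them could not be told apart from those of the members.

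Transcript use was compared as the share of a gene's TPM, which the choice of members did not use. Ednrb had 3 coding transcripts. Ednrb-201 starts at 103844402 on the minus strand, upstream of Ednrb-202 and Ednrb-203, which start at 103843696 and 103843695. Its share was 62.1%, 75.3%, 45.7%, 54.1% and 45.4% in the HFD Renin libraries and 23.8%, 29.2%, 38.7% and 51.2% in chow novirus, so the groups overlapped. It ran from 20.1% to 45.7% in chow Renin and from 31.9% to 72.8% in HFD novirus. The mean of 56.5% ± 12.5 (SD, n = 5) in HFD Renin was above 36.8% ± 8.85 (n = 6) in chow Renin (two-sided exact permutation p 0.013, adjusted p 0.357) and 35.7% ± 12.0 (n = 4) in chow novirus (exact p 0.0476, adjusted p 0.857). Ednrb-202 had the opposite pattern, at 23.5% ± 13.9 in HFD Renin (n = 5) and 43.2% ± 8.52 in chow Renin (n = 6), groups that did not overlap (exact p 0.00433, the smallest possible, adjusted p 0.238). These 3 were the tests with an exact p under 0.05 among 55, and 0 of the 55 passed the adjustment, as did 0 of 35 on shares of estimated reads. Ednrb-202 was at 0 reads in HFD novirus replicate 1 and HFD Renin replicate 2 and the 3 transcripts overlap, so the split of reads between them is uncertain. Edn1 had a single transcript, and Edn3-201 held 93.5% of the TPM of Edn3 on average.

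Around the receptors, 62 genes of the pathway were listed by role, and 58 of them passed the filter. Against chow novirus, in HFD Renin 3 of the 58 rose and 1 fell, where 4.05% of all genes were called higher and 4.25% lower, and the median log2 fold change of the list was 0.0032 against 0.015 over all genes. Prkg1, the cGMP-dependent kinase that relaxes smooth muscle downstream of nitric oxide, rose from 7.54 ± 1.14 to 13.8 ± 1.45 CPM (SD, n = 4 and 5), by 0.88 in log2 units (SE 0.11, edgeR adjusted p 0.000124). Grk5, a kinase that marks active receptors for desensitisation, rose from 29.3 ± 1.68 to 57.2 ± 4.32 CPM, by 0.96 (SE 0.17, edgeR adjusted p 0.00176). Rock2, a kinase that promotes smooth muscle contraction, rose by 0.37 (SE 0.07, edgeR adjusted p 0.00206). Rgs2, which switches off the G protein that ETA uses, fell by 1.21 (SE 0.24, edgeR adjusted p 0.00537), from 65.5 ± 6.93 to 28.3 ± 10.95 CPM. For each of these 4 genes the HFD Renin and chow novirus libraries did not overlap, as for 4.98% of all genes above and 5.07% below. With the clock score as a covariate none of the 4 passed (adjusted p 0.29 to 0.804), with folds of 0.76 for Prkg1, 0.77 for Grk5, 0.22 for Rock2 and -0.35 for Rgs2 in log2 units. Calls over all genes went from 1262 to 0 with that covariate. Clock scores did not overlap between these groups (3.53 to 3.84 in chow novirus, 2.18 to 3.36 in HFD Renin). The fit therefore cannot tell clock from group.

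The effect of Renin on HFD shares the HFD Renin libraries with the comparison above. Against HFD novirus, in HFD Renin 4 of the 58 rose and 2 fell (median -0.069, and -0.0064 over all genes), with 6.07% of all genes called higher and 5.08% lower. These were 923 and 773 genes, against 1534 and 187 on log2 TPM. Prkg1 rose by 0.56 (SE 0.10, edgeR adjusted p 0.00138), Prkca, a protein kinase C, by 0.36 (SE 0.09, adjusted p 0.0105), Grk5 by 0.48 (adjusted p 0.0361) and Rock2 by 0.19 (adjusted p 0.0379). Itpr3, a calcium release channel, fell by 0.34 (adjusted p 0.0234), and Rock1 fell by 0.31 (adjusted p 0.0382). The count was 3 without HFD novirus replicate 3 or 6, 1 without HFD Renin replicate 1, 2 without replicate 2 or 5, and 10 without replicate 4, and it was 0 with the clock score, as over all genes. HFD alone gave 0 of 58 in edgeR and DESeq2, with 9 at an unadjusted p under 0.05 (median 0.048, and 0.0089 over all genes). Of all genes, 0.0657% were called by edgeR there, and 11% had an unadjusted p under 0.05.

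Among the listed genes, the difference between chow Renin and chow novirus was largest for a protein kinase C gene. In chow Renin against chow novirus 7 of the 58 rose and 2 fell (median -0.015, and -0.026 over all genes), where 10.1% of all genes were called higher and 3.36% lower. Over all genes that is 1537 higher and 511 lower, which became 1625 and 264 with upper-quartile factors and 1581 and 41 on log2 TPM. The number lower was 174 to 324 without chow novirus replicate 1 or 2 or chow Renin replicate 1, 3 or 5. Prkcb, a protein kinase C, rose from 3.32 ± 0.410 to 13.9 ± 3.28 CPM (SD, n = 4 and 6), by 2.06 on the log2 scale (SE 0.17, edgeR adjusted p 9.08e-09). Plcb1, a phospholipase C that G proteins activate, rose by 1.19 (SE 0.15, adjusted p 2.07e-06), Itpr1, a calcium release channel, by 0.64 (SE 0.10, adjusted p 2.51e-05) and Rgs4, a regulator of G proteins, by 0.72 (SE 0.11, adjusted p 4.04e-05). Rhoa, the small GTPase upstream of the Rock kinases, fell by 0.16 (adjusted p 0.0159), and Gata4, a cardiac transcription factor, fell by 0.27 (adjusted p 0.0339). The other 3 called genes, Ptgs1 (0.61, adjusted p 0.0371), Prkg1 (0.33, adjusted p 0.0418) and Gnaq (0.17, adjusted p 0.0427), fall outside the rule for named genes, and they were chosen with their values in view. Nervous tissue transcripts were high in the same 6 libraries. The central neuron markers Snap25, Syt1, Rbfox3, Gad1 and Slc17a7 had a mean log2 CPM of 4.22 to 4.99 there. In the other groups it was at most 3.13. With the astrocyte score as a covariate Prkcb and Itpr1 passed (1.58, adjusted p 0.0124, and 0.91, adjusted p 0.00905), and Plcb1 and Rgs4 did not (0.71, adjusted p 0.202, and 0.39, adjusted p 0.37). Astrocyte scores of the 2 groups did not overlap, so that fit cannot tell score from group. The part of the neuron markers in these genes was not tested. The count of 9 was 5 without chow novirus replicate 4 or chow Renin replicate 2, and 4 without chow Renin replicate 3.

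HFD Renin and chow Renin differed in 10 of the 58, with 4 higher and 6 lower (median -0.034, and 0.017 over all genes). Of all genes, 9.8% were called higher and 12.8% lower, 1491 and 1949 genes, which became 844 and 2247 with upper-quartile factors and 266 and 2168 on log2 TPM. The number higher was 703 without HFD Renin replicate 1, 812 without chow Renin replicate 1 and 865 without chow Renin replicate 3. Prkcb differed by -1.66 (edgeR adjusted p 2.63e-08), Plcb1 by -0.85 (adjusted p 3.87e-05), Rgs4 by -0.59 (adjusted p 0.000129) and Itpr1 by -0.40 (adjusted p 0.00149), while Prkg1 was higher by 0.55 (adjusted p 0.000151) and Grk5 by 0.73 (adjusted p 0.000834). In the interaction, which tests the difference itself, 4 of 58 passed, all negative: Prkcb at -2.06 (edgeR adjusted p 1.53e-06), Rgs4 at -0.90 (adjusted p 0.000184), Plcb1 at -1.14 (adjusted p 0.000291) and Itpr1 at -0.58 (adjusted p 0.00395). Of all genes, 3.14% were called positive and 7.3% negative there, 478 and 1111 genes, which became 281 and 1200 with upper-quartile factors, and on log2 TPM 916 of 1135 calls were negative. The number positive was 195 to 309 without chow novirus replicate 1 or 2, chow Renin replicate 1 or 3 or HFD Renin replicate 1 or 5, and 731 without HFD Renin replicate 4. The list's median was -0.047, and 0.0075 over all genes. With the astrocyte score as a covariate, Prkcb was the 1 of these genes that passed between HFD Renin and chow Renin (-1.22, adjusted p 0.0448), and none of the 4 passed in the interaction (adjusted p 0.0958 to 0.677). Calls over all genes went from 3440 to 116 and from 1589 to 26 with that covariate. Astrocyte scores of chow Renin did not overlap those of any other group, so these fits cannot tell score from group.

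**Figure D5:**
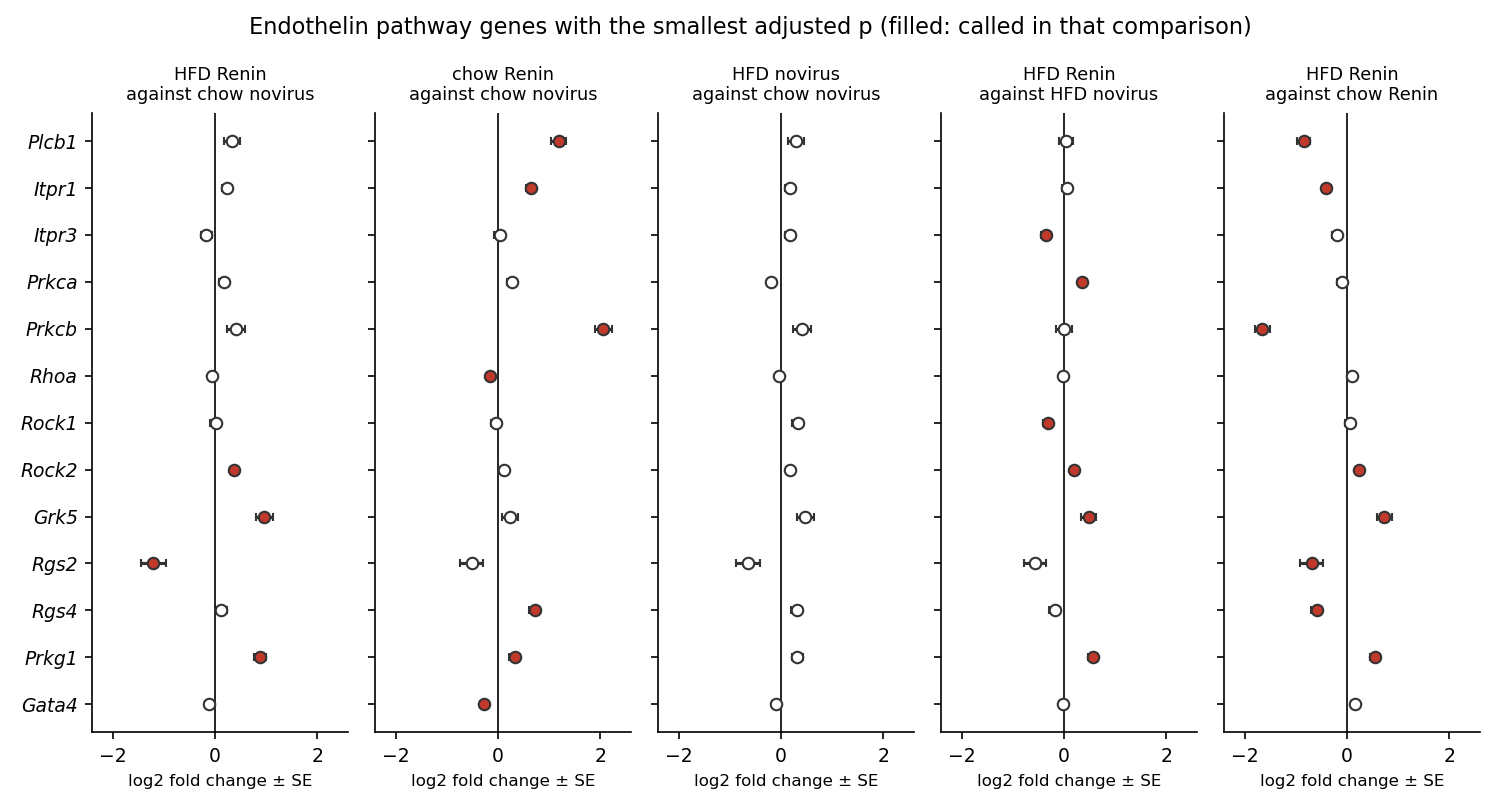
Log2 fold change ± SE of the endothelin pathway genes named by the smallest adjusted p, 1 panel for each of the 5 comparisons of 2 groups; filled points are called in that comparison. Prkg1, Grk5 and Rock2 are filled to the right of 0 wherever HFD Renin is the first group, and Prkcb, at 2.06 and -1.66, is filled in both panels that contain chow Renin.

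The genes whose log2 CPM over the 21 libraries was most like a member's are named by Pearson r, as a description, since the libraries share their groups. Those most like Edn3 were Atp8a2 (r 0.93), Xirp2 (0.93), Enah (0.92), Shisa3 (0.92), Pik3r3 (0.92), Prnp (0.92), Rtn4 (0.91), Ankrd23 (0.91), Dync1li1 (0.91) and Rnf115 (0.91). Xirp2 and Ankrd23 encode proteins of striated muscle, and Enah an actin regulator. Within groups, after group means were removed, r ran from 0.66 for Ankrd23 to 0.88 for Enah, over the same libraries that chose these genes. Xirp2 measured 222 ± 39.8 CPM in chow novirus and 764 ± 357 in HFD Renin, and Enah 104 ± 17.7 and 209 ± 65.1 (SD, n = 4 and 5). For Ednrb the nearest genes were Clec1a (0.90), an endothelial lectin gene, Ifit2 (0.86) and Col8a1 (0.86). For Ednra they were Mtf1 (0.83), Bves (0.83) and Rhot1 (0.80), and for Edn1 S1pr3 (0.78), Smim11 (0.74) and Znrf1 (0.73). Ece1 was nearest to Dpt (0.92), a fibroblast matrix gene, and Amigo2 (0.89), and Ece2 to Anp32b, Cct2 and Adcy3 (0.72, 0.72 and 0.70). Among the members themselves, Edn3 and Ednrb had the highest r over all libraries, 0.76, and Ece1 and Ece2 had the highest within groups, 0.54, against 0.48 for Edn3 and Ednrb.

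The authors' deposited table gives a comparison named for HFD and virus together, whose reference group is not stated. In the authors' deposited table Edn3 had a log2 fold change of 2.95 and Ednrb of 0.37 (adjusted p 0.00892). The authors' deposited table lists the other 4 members between -0.09 for Edn1 (adjusted p 0.521) and 0.05 for Ece2 (adjusted p 0.68).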

How the data were processed

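RNA from 21 hearts was measured by RNA-seq. Per the submitters' processing notes, the authors used Salmon 1.10.2, DESeq2 1.40.2 and the builds GRCm38 and mm10. The authors deposited, for each library, estimated counts and TPM of 119215 transcripts, per the file headers. They also deposited a gene matrix, a signal whose making is not given in the sources used here, and a table of log2 fold changes with adjusted p-values.

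From these, estimated counts were summed to genes with GENCODE M21 names (97.951% of transcripts matched; reads that did not match were 0.854% to 0.925% of a library) and rounded, in place of the raw counts that the design assumed. edgeR 4.0.16 (R 4.3.3) with TMM factors and filterByExpr kept 15216 of 23718 genes. Its quasi-likelihood test was fitted once over the 4 groups, with Benjamini-Hochberg adjustment over all genes kept and a threshold of 0.05. Correlations used log2 CPM with a prior count of 2. Transcript shares (transcripts with at least 5% of a gene's TPM) and the receptor ratio were tested with two-sided exact permutation tests, adjusted within each family. The script was tested on simulated data.

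The members and lists were chosen with earlier results of these data known. Named genes were the 6 members, up to 6 called pathway genes a comparison by smallest adjusted p, and the 10 genes with the highest r with Edn3 and 3 for each other member, of which 1 for Ece1 is not reported here. A further 3 pathway genes of chow Renin were named after their values were seen. Alternatives were other normalizations, no filter, DESeq2 1.42.0, limma 3.58.1 on log2(TPM + 0.5), a fit of the compared groups alone, a replicate block, covariates for the clock, atrial muscle, endothelial and astrocyte scores, and leaving out each library. Leaving out the 5 libraries with atrial transcripts (score above 4), thinned counts and TPM of transcripts of at least 1000 bases were added after seeing the data.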

Additional observations from a re-analysis of the deposited data

Results flagged for a closer look

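In 4 pathway genes the effect of Renin differed between diets by the interaction test: Prkcb at -2.06, Plcb1 at -1.14, Rgs4 at -0.90 and Itpr1 at -0.58 on the log2 scale, each negative because the rise with Renin was seen on chow. Nervous tissue transcripts were high in the same chow Renin libraries. With the astrocyte score as a covariate none of the 4 interactions passed (-1.51, -0.59, -0.53 and -0.90), while calls over all genes fell from 1589 to 26. That score was 2.38 or more in every chow Renin library and at most 1.55 in any other. The fit therefore cannot tell nervous tissue from group.

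In 5 cases 1 library stood far from the others of its group in the share of a gene's TPM held by a transcript, among 72 sets of values examined (CPM of the members, the receptor ratio and transcript shares, each by group), where chance gives about 1 in 20. The 5 are not independent, since shares of 1 gene move against each other. Chow novirus replicate 2 had the lowest share of Ednra-201, 91.9%, and so the highest of the retained-intron transcript Ednra-202, 8.12%. Chow Renin replicate 3 had the highest share of Ednrb-202, 59.5%. Chow novirus replicate 4 had the highest share of Ece1-201, 54.3%, and the lowest of the 172-base transcript Ece1-203, 21.02%.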

How the results depend on the processing

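Of 1015 values of single tested members under the alternatives, 984 kept their side of the threshold (70 of them, not called, had the opposite sign), 26 lost the call and 5 gained it. Members called in HFD Renin against chow novirus were 1, and 0 on log2 TPM, in the fit of the compared groups alone, with the replicate block and with the clock score. In chow Renin against chow novirus they were 0, and 1 with the endothelial score. For HFD Renin against HFD novirus they were 1, then 0 with the clock score and 2 with the astrocyte score. Between HFD Renin and chow Renin they were 2, then 1 with no filter, the clock score, the endothelial score or without the libraries with atrial transcripts, and 0 on log2 TPM or with the astrocyte score. In the interaction they were 0, and 1 with the endothelial score. Over all genes the clock score took calls in HFD Renin from 1262 to 0 against chow novirus and from 1696 to 0 against HFD novirus. The astrocyte score took them from 2048 to 247 in chow Renin against chow novirus, from 1696 to 1058 in HFD Renin against HFD novirus, from 3440 to 116 against chow Renin and from 1589 to 26 in the interaction. Pathway genes called went from 4 to 0 with the clock score in HFD Renin against chow novirus. In chow Renin against chow novirus they went from 9 to 4 with no filter, 5 on log2 TPM, 4 with the clock score and 3 with the astrocyte score. In HFD Renin against HFD novirus they went from 6 to 2 in the fit of the compared groups alone, 0 with the clock score and 2 with the astrocyte score. In HFD Renin against chow Renin they went from 10 to 2 with the astrocyte score, and in the interaction from 4 to 7 with the endothelial score and 0 with the astrocyte score. The cause of these changes was not tested. Clock scores of chow novirus and HFD Renin did not overlap, and astrocyte scores of chow Renin did not overlap those of any other group. In those comparisons the fits cannot tell score from group.

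Leaving out 1 library at a time gave 0 to 1 members called in HFD Renin against chow novirus, 1 to 2 in HFD Renin against chow Renin, 0 to 1 in the interaction, and the same number in the other 3 comparisons (0, 0 and 1). Pathway counts ran from 4 to 6, 4 to 12, 0 to 0, 1 to 10, 9 to 14 and 4 to 6, in the order HFD Renin, chow Renin and HFD novirus against chow novirus, HFD Renin against HFD novirus and chow Renin, and the interaction. The Edn3 difference in mean log2 CPM ran from 2.78 to 3.40. The receptor ratio ran from -0.55 to -0.27, -0.51 to -0.23, -0.14 to 0.14, -0.55 to -0.32 and -0.18 to 0.05 in the first 5 of those comparisons.

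Replicate numbers did not pair the samples: 11 of 28 same-number pairs had r above 0.1 (-0.226 to 0.421). Pairs of replicate 3, each a library with atrial transcripts, had r of 0.220 or more, and no other pair was above 0.161. With the replicate block Ednrb in HFD Renin against chow novirus had 0.47 (edgeR adjusted p 0.0572), and pathway counts were 5, 12, 0, 7, 13 and 4. Depth limits Edn1, Ece2 and, in chow novirus, Edn3, which had 67 to 131, 20 to 79 and 30 to 81 reads a library.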
